A study of Homo sapiens with 8 samples.

Results

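The genes described here are the 10 that encode the engine of mitotic entry and its direct controls: CDK1, the cyclins CCNA2, CCNB1 and CCNB2, the phosphatases CDC25B and CDC25C, the kinases WEE1 and PKMYT1, and the small CDK-binding proteins CKS1B and CKS2. They were taken by gene symbol from the 38148 genes of the deposited table, under a rule that sets no threshold on their values, though earlier results of these data were known when the set was drawn up. All 10 passed the filter on low values that left 14219 genes for testing. The values are mRNA-seq measurements of HT29, a human colorectal cancer cell line, either untreated or treated with 1 μM selumetinib, an inhibitor of MEK, for 24 h. After glyoxal fixation, cells of both conditions were sorted by staining for cyclin B1 (CCNB1), so that each condition gave a CCNB1-negative and a CCNB1-positive fraction, and poly(A) RNA was sequenced from 2 libraries of each of the 4 groups. HT29 is a single cell line, and no source used here says whether the 2 libraries of a group came from separate cultures, so the p-values measure the spread between these libraries, which may be technical.

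The sample titles name the opposite treatment and the opposite fraction from the descriptions in all 8 libraries. Groups here follow the descriptions, which match the column names of the table. If the titles were right, each response to selumetinib given for one fraction would belong to the other fraction with its sign turned, and each difference between fractions given for one treatment would belong to the other treatment with its sign turned. CCNB1 mRNA would then be 4.25-fold and 33.8-fold lower in cells sorted as positive for its protein, and the 11 ERK targets of 13 that are lower in each fraction below, such as ETV4 (−3.10 and −2.34 on the log2 scale), would be higher under an inhibitor of MEK. The labels also name a growth medium, RPMI-1640, other than the one the methods give for HT29.

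CDK1 drives cells from G2 into mitosis once it is bound to a cyclin. Cyclin A2 accumulates from S phase on, and cyclins B1 and B2 accumulate in G2 and are destroyed at anaphase. WEE1 and PKMYT1 hold CDK1-cyclin complexes inactive by phosphorylating CDK1, and the CDC25 phosphatases remove these phosphates. CKS1B and CKS2 bind CDK complexes and help them act on substrates that are already phosphorylated, and CKS1B also serves the ubiquitin ligase that destroys the inhibitor p27. Much of this gene set is transcribed in G2 under the MuvB complex with MYBL2 and FOXM1, which is known to act at promoters through a short motif called the CHR. MEK activates ERK, and ERK signalling drives the passage from G1 into S phase in many colorectal cancer cells.

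The deposited table places the genes on GRCh38 as follows. The kinase and its cyclins are CDK1 (ENSG00000170312) at chr10:60778331-60794852 (plus strand), CCNA2 (ENSG00000145386) at chr4:121816444-121823933 (minus strand), CCNB1 (ENSG00000134057) at chr5:69167135-69178245 (plus strand) and CCNB2 (ENSG00000157456) at chr15:59105126-59125045 (plus strand). The phosphatases are CDC25B (ENSG00000101224) at chr20:3786772-3806121 (plus strand) and CDC25C (ENSG00000158402) at chr5:138285265-138338355 (minus strand), and the inhibitory kinases are WEE1 (ENSG00000166483) at chr11:9573670-9593457 (plus strand) and PKMYT1 (ENSG00000127564) at chr16:2968024-2980479 (minus strand). The CDK-binding proteins are CKS1B (ENSG00000173207) at chr1:154974653-154979251 (plus strand) and CKS2 (ENSG00000123975) at chr9:89311195-89316703 (plus strand), the shortest of the 10 genes by transcript with 779 and 616 bases in 3 exons each. The table gives 1 value per gene, so isoforms were not told apart.

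Reads on genes numbered between 12696860 and 23916160 per library and were fewest in treated CCNB1-negative cells. The members held between 49 and 15521 reads in a library, so each was measured above the lowest counts throughout. The share of reads from MALAT1, a nuclear RNA, was 0.303% to 0.386% in untreated and 2.01% to 4.42% in selumetinib-treated libraries, and the share from the mitochondrial genome was 4.44% to 7.80% and 11.9% to 14.8%. Their part in the results was not tested; calls that changed under a scaling without these reads are given with it below. The 11 colon epithelium genes summed to 5957 to 11931 RPM (reads of a gene scaled to the size of the library) in every library. Their levels were uneven: KRT8 held 24949 to 122801 and KRT18 21208 to 90185 reads in a library. EPCAM held 4319 to 17828 and KRT20 1400 to 5903 reads. By contrast, CDX1 held 15 to 43, CDX2 40 to 136, CDH17 23 to 77 and CEACAM5 10 to 352 reads. The 9 markers of immune, endothelial and stromal cells summed to 9.06 to 19.5 RPM, and 4 of them stayed below 1 RPM in all libraries. In bulk libraries such as these, fewer cells of a type and less RNA per cell cannot be told apart.

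Selumetinib was accompanied by a deep loss of the CDK1 and cyclin transcripts in CCNB1-negative cells and by a shallow one in CCNB1-positive cells. CDK1 was 18.0-fold and CCNB1 19.2-fold lower in treated CCNB1-negative cells, against 2.04-fold and 2.42-fold in treated CCNB1-positive cells. CDC25C, the phosphatase, fell in the negative cells and rose in the positive cells, CDC25B passed the test in neither, and WEE1 fell in the negative cells only slightly, by 1.90-fold.

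Values below are on the deposited scale, log2 of reads with every library scaled to the same total by 1 constant. CDK1, the kinase itself, stood at 11.24 and 10.78 in untreated CCNB1-negative cells, 12.49 and 12.73 in untreated CCNB1-positive cells, 7.31 and 6.38 in selumetinib-treated CCNB1-negative cells and 11.57 and 11.60 in selumetinib-treated CCNB1-positive cells. Its 4 groups did not overlap. In reads, the treated CCNB1-negative libraries held 101 and 49 for CDK1, and the treated CCNB1-positive libraries 2701 and 1965. CCNA2, the cyclin that partners CDK2 and then CDK1, stood at 10.50 and 10.58, 11.92 and 12.26, 6.99 and 6.54, and 10.90 and 10.92 in the same order of groups. CCNB1 stood at 11.66 and 12.01, 13.79 and 14.05, 7.92 and 7.22, and 12.76 and 12.53. CCNB2, the B-type cyclin found mainly at the Golgi and membranes, stood at 10.98 and 11.55, 12.74 and 12.92, 8.44 and 8.08, and 12.27 and 12.09. For these 4 genes the order of groups was the same: lowest in treated negative cells, then untreated negative, treated positive and untreated positive cells.

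The phosphatases did not share that order. CDC25B, which acts early on CDK1-cyclin B at centrosomes, stood at 11.40 and 11.23 in untreated negative, 12.82 and 12.66 in untreated positive, 11.50 and 11.30 in treated negative and 12.66 and 12.57 in treated positive cells, so that its libraries paired by fraction and not by treatment. CDC25C, which CDK1 and PLK1 activate at mitotic onset, stood at 8.65 and 8.25, 10.53 and 10.53, 6.97 and 7.10, and 11.16 and 11.46. Both of its highest libraries were the treated CCNB1-positive ones.

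Of the inhibitory kinases, WEE1, the nuclear one, stood at 10.62 and 10.58, 10.68 and 10.64, 9.90 and 9.44, and 11.07 and 10.80. PKMYT1, its membrane-bound relative, stood at 10.93 and 10.57, 10.77 and 10.51, 7.09 and 6.38, and 9.46 and 9.51, and its 2 untreated groups overlapped. The treated negative libraries were low for both kinases, but far lower for PKMYT1. CKS1B stood at 9.90 and 10.21, 10.61 and 10.95, 6.51 and 6.41, and 9.72 and 9.67. CKS2 stood at 10.88 and 11.06, 12.15 and 12.67, 8.75 and 8.15, and 11.54 and 11.58. Treated positive cells lay below untreated negative cells for CKS1B, and above them for CKS2.

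**Figure D1:**
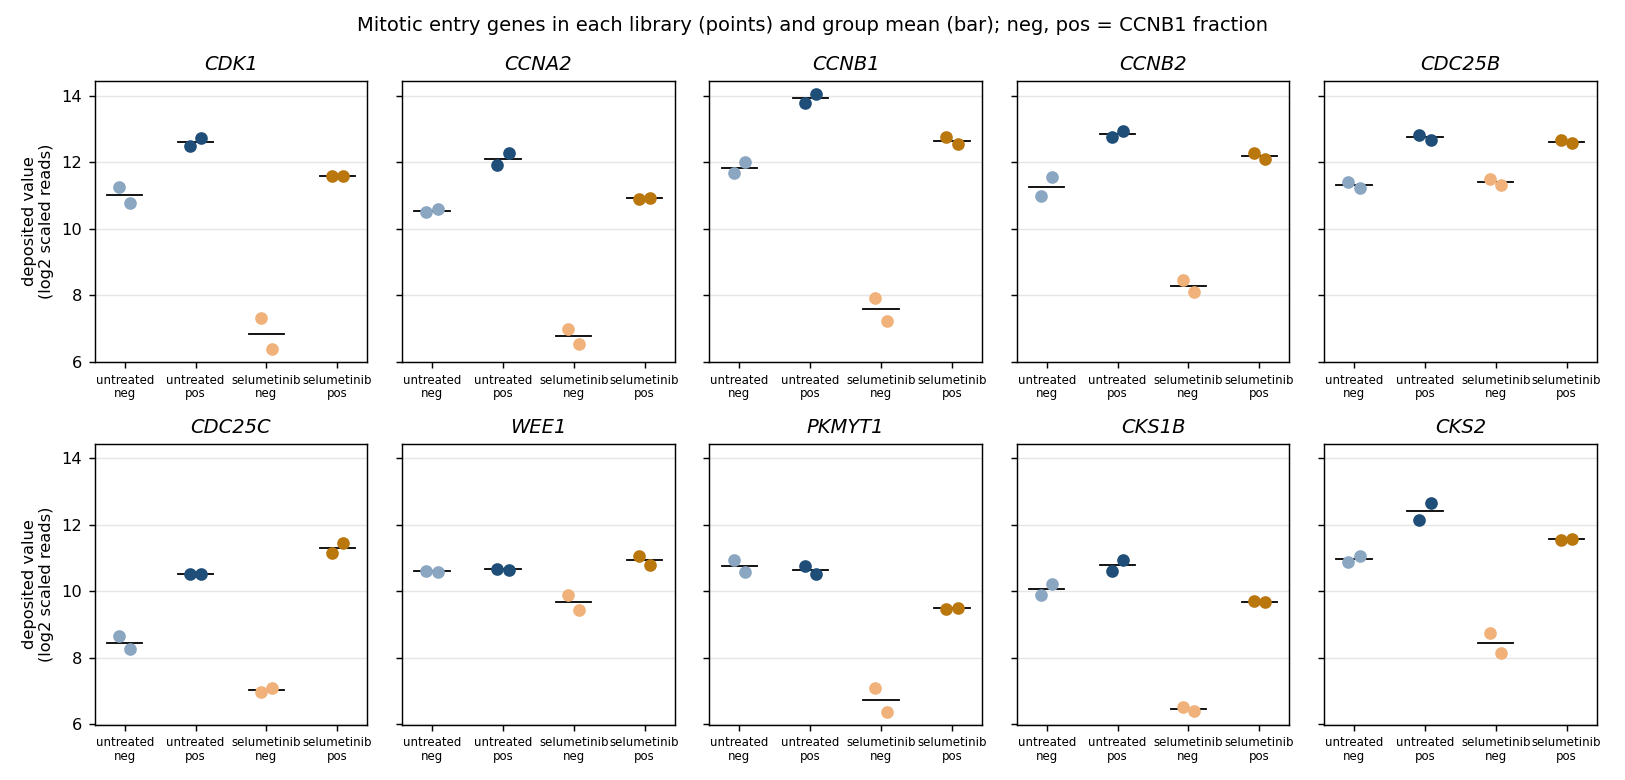
Each panel plots 1 gene, with the deposited log2 value on the vertical axis and the 4 groups on the horizontal axis; points are libraries, 2 per group, and the bar is their mean. In selumetinib-treated CCNB1-negative cells 8 of the 10 genes lie between 6.38 and 8.75, and WEE1 lies at 9.90 and 9.44, its lowest group. CDC25B pairs by fraction, and WEE1 stays between 9.44 and 11.07 over all 4 groups.

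Levels of different genes can be set beside each other only per length, here as RPM per kb of the MANE transcript, averaged over 2 libraries. In untreated CCNB1-positive cells the order was CKS2 (373), CCNB1 (319), CCNB2 (204), CDK1 (139), CKS1B (94.4), CDC25B (91.5), CCNA2 (66.5), PKMYT1 (32.4), CDC25C (29.4) and WEE1 (18.8). The libraries overlapped between CKS2 and CCNB1, between CKS1B and CDC25B and between PKMYT1 and CDC25C, and between no other neighbours. In treated CCNB1-negative cells CDC25B led the order at 40.0 RPM per kb, ahead of CKS2 at 26.6 and WEE1 at 10.6, while CDK1 was at 2.93, CCNB1 at 4.42 and CCNA2 at 1.84. In untreated CCNB1-negative cells, by contrast, CKS2 led at 136, CDC25B was seventh of the 10 at 34.2 and CDC25C last at 7.06. In treated CCNB1-positive cells CDC25C stood at 54.7, above CKS1B at 47.5 and CCNA2 at 31.3, and PKMYT1 was last at 15.5. A transcript length is 1 isoform's, so that these levels shift if cells use another.

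Promoter sequence was taken from RefSeq (GRCh38.p14), which gave 15 promoters of 300 bases (250 before and 50 after the start) for 8 of the 10 members, with none for WEE1 and PKMYT1. The CHR was searched as TTTGAA or TTTAAA on both strands, and CCAAT, the motif that NF-Y binds, also on both strands. Of all 35116 RefSeq promoters of that length, 24.0% hold a CHR match, 5.49% hold one that begins within 60 bases before the start, and 34.6% hold CCAAT. The 60-base window was set after the matches had been seen. A match in that window was found in 6 of the 15 promoters, 1 each for CDK1, CCNB1, CCNB2, CDC25C, CKS1B and CKS2. The bases just before the first annotated exon are printed for CCNB1, CCNB2 and CKS2, which show the motifs side by side, with CHR and CCAAT matches in capitals on either strand (ATTGG is CCAAT and TTCAAA is TTTGAA on the other strand). They lie at chr5:69167015-69167134, chr15:59105006-59105125 and chr9:89311075-89311194, all on the plus strand.
CCNB1: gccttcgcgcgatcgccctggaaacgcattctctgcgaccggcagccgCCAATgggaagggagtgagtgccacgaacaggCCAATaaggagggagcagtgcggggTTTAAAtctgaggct
CCNB2: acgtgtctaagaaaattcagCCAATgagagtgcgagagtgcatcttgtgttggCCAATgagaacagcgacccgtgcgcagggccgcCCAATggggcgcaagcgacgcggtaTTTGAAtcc
CKS2: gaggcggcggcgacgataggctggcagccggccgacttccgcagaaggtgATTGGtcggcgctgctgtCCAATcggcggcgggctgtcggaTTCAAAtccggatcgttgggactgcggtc

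In these stretches CCNB1 holds 2 CCAAT matches and 1 CHR match, CCNB2 holds 3 and 1, and CKS2 holds 2 and 1. The CHR match began 30 bases before the RefSeq start in CCNB1 and 29 bases before it in CCNB2 and CKS2. The other 3 members with a match near a start are shown as the 30 bases around it, at chr10:60778453-60778482 (plus strand) for CDK1, chr5:138331817-138331846 (minus strand, written along the gene) for CDC25C and chr1:154974639-154974668 (plus strand) for CKS1B.
CDK1: tagcgcggtgagTTTGAAactgctcgcact
CDC25C: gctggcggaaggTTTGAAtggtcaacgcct
CKS1B: gcgggcggcgtgTTTGAAagcgaggccaaa

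The match began 30 bases before the start in CKS1B and 13 bases before 1 of the 2 starts of CDK1. In CDC25C it began 30 bases before the start at 138331804, while the windows of the starts at 138338355 and 138338341 held no match. CCNA2 had no CHR match in its window, and CDC25B had none before any of its 4 starts. These are matches of letters and no measure of binding. In treated CCNB1-negative cells all 6 members with a match near a start passed the test as lower, beside 35.8% of all genes. CCNA2 without such a match passed too, as did WEE1 and PKMYT1, which had no promoter to search, while CDC25B did not. With nearly all members lower and the window set after the matches were seen, these counts cannot link the motif to the response, which was not tested.

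In CCNB1-negative cells the question was what MEK inhibition did to cells sorted for low cyclin B1 protein. Of the 10 members 9 fell and 0 rose, with CDC25B the exception; over all genes tested, 35.8% fell and 38.2% rose in this comparison (limma, Benjamini-Hochberg adjusted p under 0.05). The members' median log2 difference was −3.30, against 0.05 over all genes. The log2 difference was −4.27 for CCNB1 (SE 0.21, adjusted p = 2.2e-09) and −4.17 for CDK1 (SE 0.24, adjusted p = 7.9e-09). It was −4.02 for PKMYT1 (SE 0.22), −3.78 for CCNA2 (SE 0.17), −3.60 for CKS1B (SE 0.17), −3.0 for CCNB2 (SE 0.19) and −2.52 for CKS2 (SE 0.20), with adjusted p between 1.5e-09 and 1.2e-07. CDC25C fell by 1.41 (SE 0.18, adjusted p = 6.5e-06) and WEE1 by 0.93 (SE 0.17, adjusted p = 1.9e-04), and the treated and untreated libraries of both were apart. CDC25B differed by 0.09 (95% interval −0.23 to 0.40, adjusted p = 0.61), with overlapping groups.

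In CCNB1-positive cells the same contrast asked whether cells sorted as positive for cyclin B1 after treatment carry the transcripts of untreated ones. Here 7 members fell and 1 rose; over all genes tested, 27.3% fell and 38% rose. The members' median log2 difference was −0.94, against 0.17 over all genes. CCNB1 fell by 1.27 (SE 0.21, adjusted p = 1.4e-04), CCNA2 by 1.19 (SE 0.17, adjusted p = 5.2e-05), PKMYT1 by 1.16 (SE 0.22, adjusted p = 3.9e-04) and CKS1B by 1.09 (SE 0.17, adjusted p = 1.0e-04). CDK1 fell by 1.03 (SE 0.24, adjusted p = 0.0021) and CKS2 by 0.85 (SE 0.20, adjusted p = 0.0024). CDC25C rose by 0.78 (SE 0.18, adjusted p = 0.0015), or 1.72-fold, and both treated libraries lay above both untreated ones. CCNB2 fell by 0.65 (SE 0.19, adjusted p = 0.0084), the smallest of the falls.

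The 2 remaining members were WEE1 at 0.27 (95% interval −0.09 to 0.63, adjusted p = 0.17) and CDC25B at −0.13 (95% interval −0.44 to 0.19, adjusted p = 0.47). With libraries scaled to nuclear genes without MALAT1, which moved the median of all genes from 0.05 to 0.36 in negative and from 0.17 to 0.42 in positive cells, WEE1 passed as higher in positive cells (0.52, adjusted p = 0.016), CDC25B passed as higher in negative cells (0.40, adjusted p = 0.028) and turned to 0.12 in positive cells, and CCNB2 no longer passed (−0.40, adjusted p = 0.070). WEE1 also passed as higher in positive cells with limma-voom on the recovered reads (0.38, adjusted p = 0.048). CCNB2 was also lost with quantile normalization (−0.25, adjusted p = 0.26), without untreated CCNB1-positive replicate 2 (−0.56, adjusted p = 0.064) and without selumetinib-treated CCNB1-positive replicate 2 (−0.56, adjusted p = 0.063). Relative to the all-gene median of 0.17, CDC25C was higher by 0.62 and CDC25B lower by 0.29 in positive cells, values that carry no test of their own. Under the nuclear scaling 71.9% of the called genes were higher in positive cells and under quantile normalization 47.1%, against 58.1% on the deposited scale; in negative cells the share was 63.1% under the nuclear scaling against 51.6%.

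**Figure D2:**
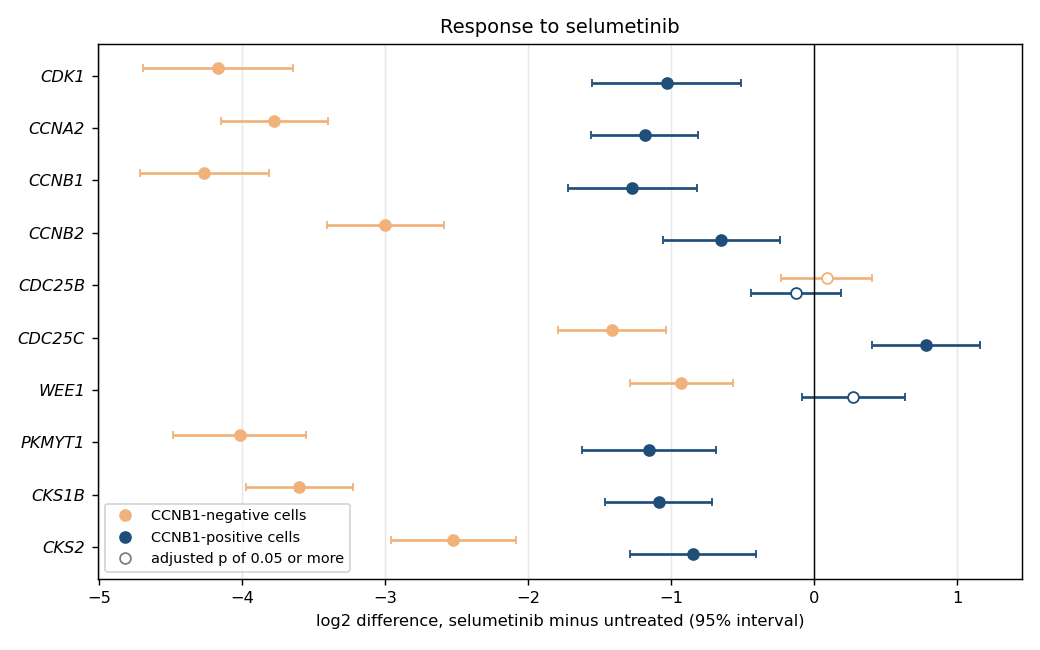
The horizontal axis is the log2 difference between selumetinib-treated and untreated cells with its 95% interval, for CCNB1-negative (orange) and CCNB1-positive (blue) cells; open points have an adjusted p of 0.05 or more. The orange points of 7 genes lie below −2 and the blue points of CDC25C and WEE1 lie above 0, with CDC25C at 0.78.

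The difference between the responses of the fractions was tested as an interaction. It was above 0 for 9 of the 10 members, with a median of 2.43 against 0.11 over all genes; 4.99% of all genes passed in that direction and 0.345% in the other. CDK1 had a difference of 3.14 (SE 0.34, adjusted p = 3.9e-05), CCNB1 of 2.99 (SE 0.30, adjusted p = 1.8e-05) and PKMYT1 of 2.86 (SE 0.31, adjusted p = 3.3e-05). The interactions of CCNA2, CKS1B, CCNB2, CDC25C, CKS2 and WEE1 lay between 1.20 and 2.59. CDC25B had one of −0.21 (95% interval −0.66 to 0.24, adjusted p = 0.60), so that a difference larger than 0.66 in either direction lay outside its interval. The 4 comparisons share libraries in pairs, and the interaction combines all 8.

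In untreated cells the fractions compare cells without and with cyclin B1 protein in an undisturbed culture. CCNB1 was the sorted protein, so its own mRNA difference of 2.09 (SE 0.21, 4.25-fold) is tied to the sort. Of the 10 members 8 were higher in positive cells and 0 lower, where 1.36% of all genes were higher and 1.51% lower. CDC25C was higher by 2.08 (SE 0.18, adjusted p = 9.1e-06), as much as CCNB1, and CDK1 by 1.60 (SE 0.24, adjusted p = 0.0014), or 3.04-fold. CCNB2 was higher by 1.57 (SE 0.19), CCNA2 by 1.55 (SE 0.17), CKS2 by 1.44 (SE 0.20) and CDC25B by 1.43 (SE 0.15), with adjusted p from 4.15e-05 to 8.2e-04. CKS1B was higher by 0.72 (SE 0.17, adjusted p = 0.039), but it passed in 9 of 18 alternative settings, and the adjusted p ranged from 2.7e-04 to 0.44; it was lost without untreated CCNB1-negative replicate 1 (0.56, adjusted p = 0.30) or untreated CCNB1-positive replicate 2 (0.55, adjusted p = 0.44).

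The inhibitory kinases did not pass in that comparison. WEE1 differed by 0.06 (95% interval −0.30 to 0.42, adjusted p = 0.94) and PKMYT1 by −0.11 (95% interval −0.58 to 0.35, adjusted p = 0.91). Both intervals lie below the smallest difference of the 7 strongest members, 1.43 for CDC25B. The interval of CKS1B, which also passed, was 0.35 to 1.09 and overlapped both. In untreated cells the cyclins, CDK1 and both phosphatases were thus higher in the positive fraction, while the kinases that oppose the phosphatases did not pass the test. The count of calls over all genes in this comparison moved with the settings, from 408 on the deposited scale to 217 at an adjusted p of 0.01, and quantile normalization moved the share of higher calls from 47.5% to 65.7%.

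In selumetinib-treated cells the fractions were further apart. All 10 members were higher in the positive fraction, where 13.8% of all genes were higher and 7.87% lower. The members' median difference was 3.58, against 0.02 over all genes. CCNB1 is counted among the 10, and its own difference is tied to the sort here too. CCNB1 was higher by 5.08 (SE 0.21, 33.8-fold), CDK1 by 4.74 (SE 0.24, 26.7-fold), CDC25C by 4.28 (SE 0.18, 19.4-fold) and CCNA2 by 4.14 (SE 0.17, 17.6-fold), with adjusted p from 5.4e-10 to 4.1e-09. CCNB2 was higher by 3.92 (SE 0.19), CKS1B by 3.23 (SE 0.17), CKS2 by 3.11 (SE 0.20) and PKMYT1 by 2.75 (SE 0.22). WEE1 was higher by 1.26 (SE 0.17, adjusted p = 1.2e-04) and CDC25B by 1.21 (SE 0.15, adjusted p = 5.0e-05). All 10 differences passed in each of 18 alternative settings. Over all genes, the share of higher calls was 63.6% on the deposited scale, 46.5% with quantile normalization, 53.2% with the nuclear scaling and 50.04% with limma-voom.

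**Figure D3:**
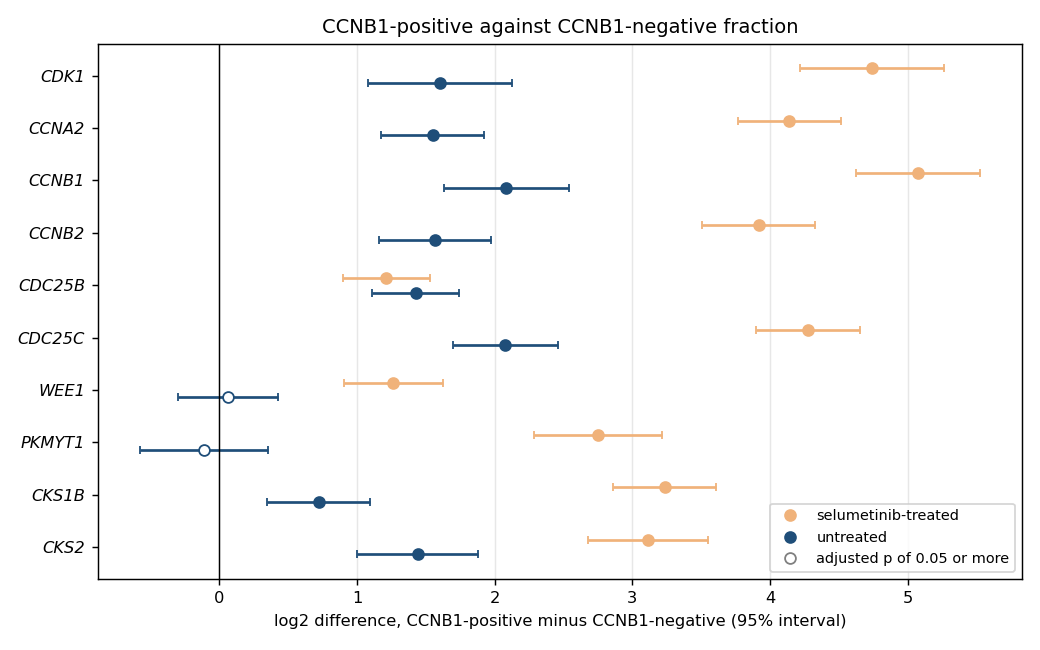
The horizontal axis is the log2 difference between CCNB1-positive and CCNB1-negative cells with its 95% interval, in untreated (blue) and selumetinib-treated (orange) cells; open points have an adjusted p of 0.05 or more. WEE1 and PKMYT1 sit at 0.06 and −0.11 in untreated cells and at 1.26 and 2.75 in treated ones, whereas CDC25B is at 1.43 and 1.21.

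The balance between members of a pair was read within each library, where scaling cancels, as a description without a test. It is not corrected for transcript length, so a sign or a value near 0 does not say which gene was more abundant. PKMYT1 minus WEE1 was 0.31 and −0.01 in untreated negative and 0.09 and −0.14 in untreated positive libraries, and −2.81 and −3.06 in treated negative and −1.61 and −1.30 in treated positive libraries. The ratio of the 2 kinases thus varied little among the untreated libraries, and the treated ones had less PKMYT1 for each WEE1 in both fractions. Per kb, untreated cells held more PKMYT1 than WEE1, at 35.2 against 18.1 RPM per kb in negative and 32.4 against 18.8 in positive cells. CDC25C minus CDC25B was −2.75 and −2.98 in untreated negative, −2.29 and −2.13 in untreated positive, −4.53 and −4.20 in treated negative and −1.49 and −1.11 in treated positive libraries. Treatment thus widened that gap in negative cells and narrowed it in positive cells. CDC25C minus WEE1 set the activating phosphatase against the inhibiting kinase. It was −0.16 and −0.11 in untreated positive and 0.09 and 0.66 in treated positive libraries. Per kb, CDC25C was already above WEE1 in untreated positive cells, at 29.4 against 18.8 RPM per kb. CDC25B minus WEE1 was 2.14 and 2.02 in untreated positive and 1.59 and 1.77 in treated positive libraries, so that with treatment CDC25C gained and CDC25B lost against WEE1 there. In negative libraries CDC25B minus WEE1 was 0.78 and 0.64 untreated and 1.60 and 1.86 treated, a gain, while CDC25C minus WEE1 was −1.97 and −2.33 untreated and −2.93 and −2.34 treated.

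CCNB2 minus CCNB1 was −0.68 and −0.46 in untreated negative and −1.05 and −1.13 in untreated positive libraries, and 0.53 and 0.86 in treated negative and −0.49 and −0.44 in treated positive libraries. These differences are of log2 reads without regard to length, and the treated negative libraries alone lay above 0 on that scale. Per kb, CCNB2 was above CCNB1 in both treated negative libraries (10.7 and 8.47 against 5.43 and 3.42 RPM per kb), and the libraries of the 2 genes overlapped in treated positive cells. CCNA2 minus CCNB1 was −0.93 and −0.68 in treated negative libraries and between −1.16 and −1.86 in the other 6. CCNB1 minus CDK1 was between 0.42 and 1.32 in all 8 libraries, with the widest gap between replicates, 0.42 and 1.23, in untreated negative cells. CKS2 minus CKS1B was 0.98 and 0.84 in untreated negative libraries and from 1.54 to 2.24 in the others.

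**Figure D4:**
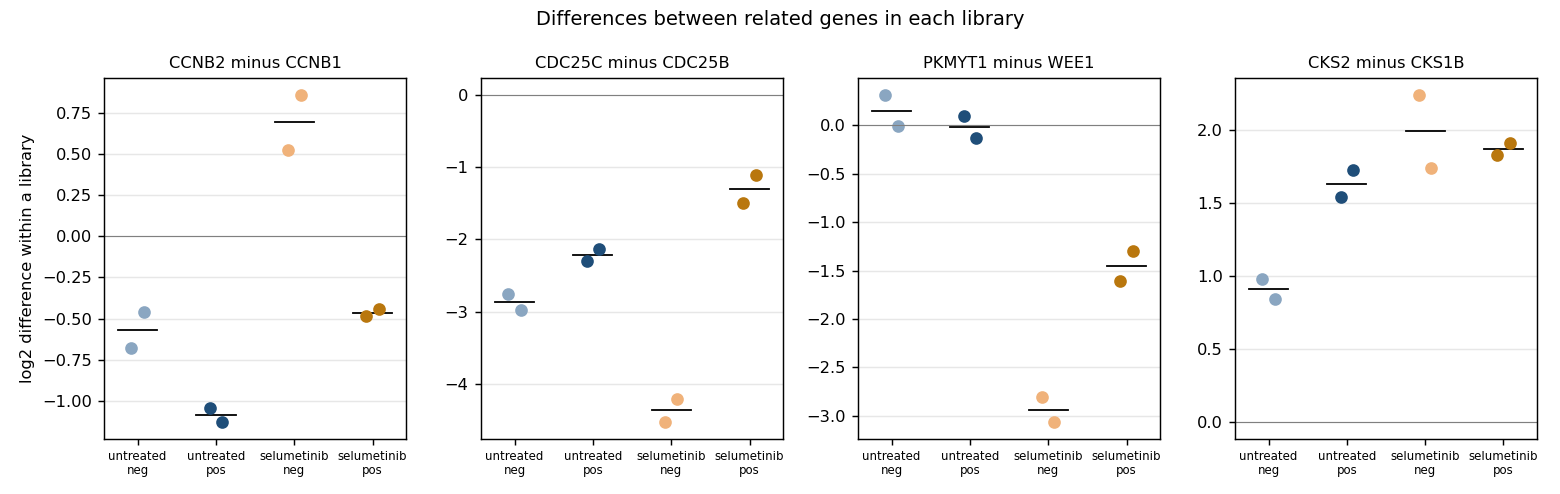
Each panel plots the log2 difference between 2 genes within a library for the 4 groups; points are libraries, the bar is their mean, and the vertical ranges differ between panels. PKMYT1 minus WEE1 lies near 0 in untreated and below −1 in treated libraries. CCNB2 minus CCNB1 is above 0 in the treated CCNB1-negative libraries alone. None of the differences is corrected for length, so a value of 0 does not mean equal amounts.

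Partners of this engine were read from a list of 26 genes. CCNA1, CCNB3 and WEE2, the germline relatives, held 0 to 14 reads in a library and were not tested. Of the 23 tested, 13 fell and 3 rose in treated negative cells (35.8% and 38.2% of all genes). In treated positive cells 12 fell and 4 rose (27.3% and 38% of all genes). In the positive fraction of untreated cells 7 were higher and 1 lower (1.36% and 1.51% of all genes). In that of treated cells 12 were higher and 3 lower (13.8% and 7.87% of all genes). The interaction passed the test above 0 for 11 and below 0 for 0, beside 4.99% and 0.345% of all genes. Some of the 12 that did not pass had values below 0, such as BTRC (−0.83) and FBXW11 (−0.63).

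PLK1, which phosphorylates CDC25C and WEE1, fell by 3.32 in negative and by 1.36 in positive cells, and AURKA, which activates PLK1, fell by 3.14 and by 1.03. TPX2, the AURKA activator, fell by 3.71 and by 1.07. BORA, the cofactor of AURKA, fell by 1.38 in negative cells and stood at −0.21 in positive cells (adjusted p = 0.32), and CCNF, a cyclin that serves a ubiquitin ligase, fell by 1.66 and stood at −0.23 (adjusted p = 0.37). CDC25A, the phosphatase of S phase, fell by 4.17 and by 1.80, the deepest fall of a partner in positive cells. CDK2, the S-phase kinase, fell by 2.52 and by 0.37, and was the 1 partner lower in untreated positive cells (−0.90, adjusted p = 0.0025).

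The Greatwall branch, which restrains the phosphatase that opposes CDK1, moved in part: MASTL fell by 1.89 and by 0.39 and ARPP19 by 1.26 and by 0.61, while ENSA stood at −0.24 and −0.04 and the phosphatase subunits PPP2R2A and PPP2R2D between −0.28 and 0.08, none of them passing. Of the kinase that activates CDK1, CCNH fell by 0.83 and by 0.60, CDK7 stood at −0.28 (adjusted p = 0.11) and fell by 0.43, and MNAT1, its assembly factor, rose by 1.26 and by 0.70. CHEK1, the checkpoint kinase that restrains CDC25 phosphatases, fell by 2.86 and by 1.07. The CDK inhibitor CDKN1A and the stress gene GADD45A stood at 0.37 and 0.29 in negative cells (adjusted p = 0.51 and 0.18) and rose by 1.66 and by 1.02 in positive cells; for neither did the interaction pass (adjusted p = 0.32 and 0.14).

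Among the genes for protein destruction, BTRC, the adaptor that targets WEE1, rose by 1.81 and by 0.97, and its relative FBXW11 rose by 0.89 in negative cells and stood at 0.27 (adjusted p = 0.16). SKP2, which works with CKS1B, fell by 2.11 and by 0.88. CDC20, the anaphase activator that destroys cyclin B, fell by 4.07 and by 0.66. FZR1, the activator of the same ligase in G1, stood at 0.27 and −0.09 (adjusted p = 0.17 and 0.67), and was higher in the positive fraction by 1.58 in untreated and by 1.22 in treated cells, values close to those of CDC25B.

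**Figure D5:**
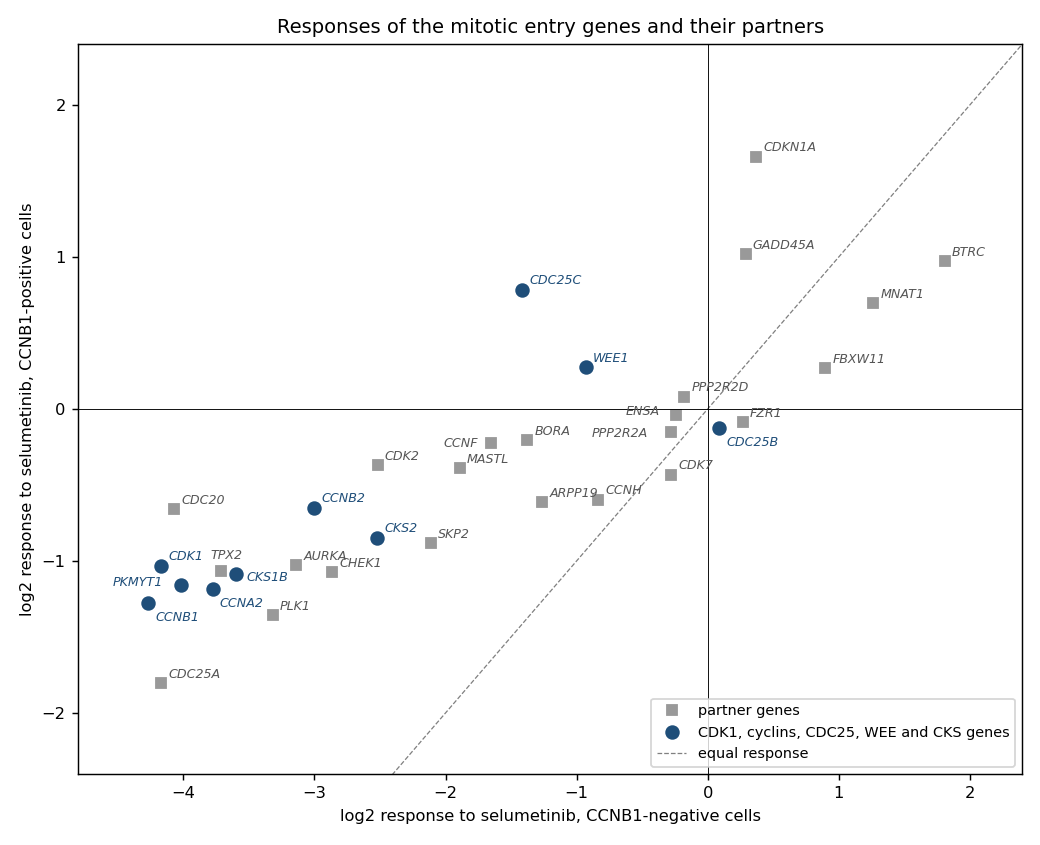
The horizontal axis is the log2 response to selumetinib in CCNB1-negative cells and the vertical axis that in CCNB1-positive cells, for the 10 members (circles) and the 23 partners tested (squares); the dashed line marks equal responses. CDC25C is the only circle with a passed rise, at −1.41 and 0.78, and FZR1 lies beside CDC25B near 0 on both axes.

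Of 14 genes of the G2 transcription machinery, 10 fell and 3 rose in treated negative cells, beside 35.8% and 38.2% of all genes. In treated positive cells 5 fell and 3 rose, beside 27.3% and 38%, so that the share lower was near that of all genes. MYBL2 fell by 3.28 and by 0.99, and FOXM1 by 2.93 in negative cells, while it stood at −0.06 in positive cells (adjusted p = 0.74). RBL2, a pocket protein of the repressive form of the complex, rose by 0.81 and by 0.71, and the MuvB subunits LIN37 by 0.71 and 0.72 and LIN52 by 0.66 and 0.72. TFDP1 and E2F4, which also belong to that form, fell by 2.14 and by 1.48 and by 1.36 and by 1.13, the lowest values of the list in positive cells, and the subunit RBBP4 fell by 0.81 and by 0.54. The subunits LIN9 and LIN54 and the pocket protein RBL1 fell in negative cells and did not pass in positive cells.

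The sorted fractions differed in other cell cycle genes beside the members. The 16 markers of G2 and mitosis summed to 1247 and 1670 RPM in untreated negative, 5408 and 5463 in untreated positive, 206 and 252 in treated negative and 4467 and 4656 in treated positive libraries. All 16 fell in treated negative cells, and 11 fell and 0 rose in treated positive cells; DLGAP5 fell by 1.24 and TOP2A stood at 0.12 (adjusted p = 0.62). The 17 S-phase markers summed to 3476 and 3734, 1998 and 2077, 462 and 482, and 893 and 1004 RPM, and 17 and 16 of them fell in the 2 fractions. The part of these shifts in the members' differences was not tested. The 13 ERK targets, a readout of the drug, fell in 11 cases in negative and in 11 in positive cells. ETV4 was lower by 3.10 and by 2.34, and EGR1 higher by 1.17 and by 1.58. For 0 of the 13 did the interaction pass, beside 4.99% of all genes above 0 and 0.345% below. The falls counted for these 3 lists stand beside 35.8% of all genes in negative and 27.3% in positive cells.

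Genes with the most similar patterns were found by the Euclidean distance between 4 group means, each gene centred on its own mean, over the 14219 genes tested. For CDK1 the nearest were BUB1 (distance 0.18 log2 units), DLGAP5 (0.32), TPX2 (0.36), ARHGAP11A (0.40) and CCNA2 (0.44), and for CCNB1 they were DLGAP5 (0.16), BUB1 (0.42), CDK1 (0.45), CDC20 (0.46) and TPX2 (0.49). For CDC25B they were AL139142.2 (0.10), FZR1 (0.15), CNTRL (0.25), FBXO48 (0.28) and ANKRD45 (0.30). For WEE1 they were ENO2 (0.13), MGME1 (0.15), RASSF1 (0.17), MVK (0.18) and TAS2R20 (0.19). CDC25B and WEE1 lay 3.59 and 3.52 from CDK1, against 0.45 for CCNB1. These distances rest on 4 group means of 8 libraries and describe likeness alone.

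Some members share sequence with other transcripts, and whether reads were counted by strand is not stated. CCNA2 overlaps EXOSC9, CDC25C overlaps FAM53C and PKMYT1 overlaps PAQR4 and KREMEN2 (not tested here) on the opposite strand, so reads of such pairs may not be told apart. CCNB2 overlaps 1 long non-coding RNA on the opposite strand (ENSG00000277144) and 1 on its own strand (ENSG00000259732), which counting by strand would not separate. WEE1 overlaps a small nucleolar RNA, and CKS1B and CKS2 each overlap a microRNA, on the same strand. FAM53C stood at 0.11 in negative and 0.08 in positive cells (adjusted p = 0.53 and 0.66), unlike CDC25C. PAQR4 fell by 3.05 and by 1.55 and EXOSC9 by 2.30 and by 1.35, as PKMYT1 and CCNA2 did. Between the untreated fractions EXOSC9 stood at −0.52 (adjusted p = 0.097) where CCNA2 was higher by 1.55. PAQR4 was lower there by 0.77 (adjusted p = 0.011), with PKMYT1 at −0.11. Between the treated fractions EXOSC9 and PAQR4 stood at 0.43 and 0.74, against 4.14 for CCNA2 and 2.75 for PKMYT1. GENCODE release 44 lists 7 CKS1B pseudogenes and the deposited table holds 0 of them, so that CKS1B values are uncertain to that extent.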

How the data were processed

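Glyoxal-fixed HT29 cells were sorted for CCNB1 and poly(A) RNA was sequenced. Trimming by the authors used Trim Galore 0.5.0 and mapping used HISAT2 2.1.0 on GRCh38, after which SeqMonk gave the deposited log2 values, normalized to total read count. In each library these equal log2 of reads plus 1 constant, with 0.9 in place of 0 reads. Undoing the constant gave whole numbers (tolerance 0.05) for 100% of genes with up to 1000 reads in every library. The annotation release and strand handling of the counting are not given in the sources used here. All 8 value columns were used, and the COLO205 data are not analysed here.

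A mean of 1 RPM or more was required, and genes were tested with limma 3.58.1 in R 4.3.3, with a mean-variance trend, 1 coefficient per group and Benjamini-Hochberg adjustment over all 14219 genes. A gene was called at an adjusted p under 0.05. Tables, sequences and figures were made with Python 3.11.15, pandas 2.3.3, numpy 2.4.6 and matplotlib 3.10.9. The members and the gene lists were chosen with earlier results of these data known. Named genes are the 10 members, all partner genes but 1 that is not reported here and is left out of its list's counts, up to 2 highest and 2 lowest of each other list, the 5 nearest patterns of 4 members, and, chosen after the values were seen, genes that overlap a member and further subunits of the G2 transcription list. The colon epithelium genes named were also chosen after their values were seen. Alternatives were a threshold of 0.01, quantile normalization, scaling to nuclear genes without MALAT1, no filter, a filter of 10 RPM, log2(RPM + 0.1), limma-voom on the recovered reads, a fit of only the groups compared, the replicate number as a block, a block by pair, and leaving out each library. Reads carry no molecular identifiers, so depth bounds counting error only.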

Additional observations from a re-analysis of the deposited data

Results flagged for a closer look

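The 2 fractions responded unequally to selumetinib in 9 members by the interaction test of limma. All 9 lay above 0, beside 4.99% of all genes above 0 and 0.345% below. CCNB1, which is among the 9, encodes the protein used for the sort. The response of positive minus that of negative cells was 3.14 for CDK1, 2.99 for CCNB1, 2.86 for PKMYT1, 2.59 for CCNA2, 2.51 for CKS1B, 2.35 for CCNB2, 2.20 for CDC25C, 1.67 for CKS2 and 1.20 for WEE1, all on the log2 scale, with adjusted p from 1.3e-05 to 0.0069. The difference for CDC25C joined a fall in negative cells to a rise in positive cells, and that for WEE1 joined a fall to a value that did not pass. Each of the 9 passed in all 17 alternative settings. No group held more than 2 libraries, so no test for a stray library was possible.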

How the results depend on the processing

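Of 870 values of single members under alternative settings, 848 kept their direction and side of the threshold, 13 lost the call, 3 gained one and 6 changed sign. The sign changes were CDC25B in positive cells with quantile normalization (0.32) and with the nuclear scaling (0.12), its interaction with quantile normalization (0.00695), CDC25B in negative cells on leaving out libraries (−0.0109 to 0.184), and PKMYT1 between the untreated fractions on leaving out libraries (−0.292 to 0.0664). None of the 6 passed the test in either direction. The nuclear scaling gave 1 member higher in negative cells and 2 in positive cells, where 6588 and 6676 of 14219 genes passed as higher. With limma-voom 2 members were higher in positive cells, where 6055 of 14219 genes passed as higher. Over all genes, calls between the untreated fractions went from 408 to 217 at a threshold of 0.01, 254 with quantile normalization, 259 without a filter and 1923 with the block by pair, and ranged from 224 to 455 on leaving out libraries. Calls between the treated fractions went from 3077 to 1338 at 0.01 and 6671 with the block by pair, and ranged from 1156 to 4279, lowest without selumetinib-treated CCNB1-negative replicate 2. Interaction calls went from 758 to 426 at 0.01, 496 without a filter and 3850 with the block by pair, and ranged from 489 to 1806, highest without selumetinib-treated CCNB1-negative replicate 1. Quantile normalization moved the share of interaction calls above 0 from 93.5% to 69.2%. limma-voom called 10512, 9518, 406, 3445 and 666 genes in the 5 comparisons in the order of negative response, positive response, untreated fractions, treated fractions and interaction. The cause of these moves was not tested.

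Same-numbered libraries deviated together in the 2 fractions of a treatment (correlation 0.35 untreated and 0.43 treated over genes) and not between treatments (−0.09 to 0.08), and the labels do not say what a number marks. With the replicate number as a block, calls were 10890, 9764, 500, 3741 and 883 in the same order, and no call of a member changed under either replicate block. The block by pair gives no treatment comparison, and a fit of only the groups compared gives no interaction. With 2 libraries a group, leaving one out assumes that the lone library varies like the other groups. A member's replicates lay up to 0.93 apart on the log2 scale.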
